A study of Mus musculus with 31 samples.

Results

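The circadian clock genes described here are 10 named members of the molecular clock, namely Arntl, Clock, Per1, Per2, Per3, Ciart, Nr1d1, Nr1d2, Dbp and Tef, taken from a list of names with no threshold on their values. They are 10 of the 48709 genes listed in the deposited files, and all 10 were among the 17428 genes that passed the filter on low counts. Gene expression had been measured in the basolateral amygdala (BLA), a forebrain region known for its part in fear learning, and the files hold 31 mice of the C57BL/6N strain. The libraries sequenced only the 3′ ends of transcripts. The 16 WT mice carried no transgene (8 males and 8 females, 8 from line 1 and 8 from line 3, aged 58 to 61 days). The other 15 mice, CYFIP1 OE, carried a bacterial artificial chromosome with the human CYFIP1 gene that had been introduced by pronuclear injection (7 males and 8 females, 7 from line 1 and 8 from line 3, aged 58 to 77 days). The 4 mice aged 77 days were all CYFIP1 OE mice of line 1. Each library came from 1 mouse and pooled the tissue punches of both hemispheres. No time of collection was given in the labels.

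The clock is a feedback loop of transcription. ARNTL (also called BMAL1) and CLOCK bind together to E-box sequences and activate the Per genes, Ciart, Nr1d1, Nr1d2, Dbp and Tef. The PER proteins and CIART repress ARNTL and CLOCK in turn, and NR1D1 and NR1D2 (REV-ERB alpha and beta) repress Arntl at ROR elements. DBP and TEF are transcription factors of the PAR bZIP family that act on D-box sequences. In tissues collected over the whole day Arntl is therefore known to peak when Dbp and the Per genes are low, so that mice collected at different hours would be spread along an axis with Arntl at one end and Dbp and the Per genes at the other.

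Promoter sequences were looked up for the members because the loop runs through them, and 9 of the 10 members matched an entry (RefSeq, GRCm38.p6). The 250 bases before the most upstream start site were searched on both strands for the E-box CACGTG, the D-box TTANGTAA, the ROR element AGGTCA and the cAMP response element TGACGTCA. Among 27025 promoters of this length, 6.04% held the E-box, 2.11% the D-box, 13.8% the ROR element and 1.60% the cAMP response element. The sequences below belong to Arntl (chr7:113207215-113207464, plus strand), Per1 (chr11:69098699-69098947, plus strand), Per3 (chr4:151044666-151044915, minus strand) and Ciart (chr3:95882252-95882478, minus strand). They are printed 5′ to 3′, with motif matches in capitals, to set the activator Arntl beside 3 of its repressors. Bases next to the start that the annotation places in an exon of the gene were left out, so that the printed stretch of Ciart has 227 bases and that of Per1 is shortened too. Motif positions are counted from the RefSeq start site and not from the end of the printed stretch.
Arntl: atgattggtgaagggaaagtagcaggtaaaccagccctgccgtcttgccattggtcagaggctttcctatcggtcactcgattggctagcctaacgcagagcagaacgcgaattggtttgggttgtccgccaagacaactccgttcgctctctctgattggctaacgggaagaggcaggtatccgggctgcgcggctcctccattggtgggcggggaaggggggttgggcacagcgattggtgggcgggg
Per1: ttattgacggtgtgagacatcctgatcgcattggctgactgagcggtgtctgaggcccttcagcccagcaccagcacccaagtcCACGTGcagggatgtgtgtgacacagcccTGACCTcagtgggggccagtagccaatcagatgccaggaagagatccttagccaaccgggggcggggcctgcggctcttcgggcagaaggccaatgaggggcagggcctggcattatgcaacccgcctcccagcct
Per3: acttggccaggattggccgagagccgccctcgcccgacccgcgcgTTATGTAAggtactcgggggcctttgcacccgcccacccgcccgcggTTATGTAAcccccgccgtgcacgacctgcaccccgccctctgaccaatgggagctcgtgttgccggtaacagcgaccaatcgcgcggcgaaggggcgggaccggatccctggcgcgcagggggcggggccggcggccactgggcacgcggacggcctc
Ciart: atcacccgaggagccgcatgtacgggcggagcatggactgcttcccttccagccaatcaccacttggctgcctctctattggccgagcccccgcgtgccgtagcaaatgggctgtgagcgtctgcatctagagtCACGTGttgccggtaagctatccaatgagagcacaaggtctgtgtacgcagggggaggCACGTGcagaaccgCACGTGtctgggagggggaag
Ciart held 3 E-boxes, at 116, 58 and 44 bases upstream of the start. Per1 held an E-box at 166 bases and a ROR element, on the opposite strand, at 137 bases. Per3 held D-boxes at 205 and 158 bases upstream. Of the members not printed, Nr1d2 held a ROR element at 77 bases and Tef an E-box at 127 bases. For Tef 0 bases of the window remained once exonic bases were left out, so its E-box lies in an annotated exon. The windows of Arntl, Clock, Nr1d1 and Dbp held none of these letters, and a window of this length says nothing about sites elsewhere in the gene.

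Sequencing depth was 5286708 to 8685308 counts per mouse, with a median of 7387585. One library, from a male CYFIP1 OE mouse of line 3, stood apart from the rest with a connectivity Z-score of −4.74, a measure of how well a library correlates with all others. In that library 23 genes were listed at 0 that exceeded 3 CPM (counts scaled to the library total) in every other mouse, 19 of them annotated as pseudogenes, and Dbp was one of the 23. In the other 30 libraries the number of such genes was 0, with the exception of 1 library that had 1. The zero for Dbp is therefore given as listed, and each result that rests on this library, called the low-connectivity mouse below, is given with and without it. Mice are also grouped by the sample name without its last digits, called the name group. The 10 name groups held 1 to 7 mice, and 5 of them held both genotypes. The labels do not say whether mice of a name group shared a litter or a day of collection.

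All 10 members were expressed in the BLA samples, at levels that differed widely between genes. Since each transcript gives about 1 read in a 3′ library, levels are not divided by gene length, and levels of different genes are set side by side only as CPM. For the members and the summed gene lists below, CPM are scaled to the library total after edgeR's TMM adjustment. Tef was the most abundant member (230 ± 45.8 CPM, SD, n = 31), ahead of Nr1d2 (72.2 ± 10.7 CPM). Clock (54.9 ± 8.15 CPM) and Dbp (54.1 ± 21.1 CPM) followed at nearly the same mean and did not differ beyond their spread. Per3 (35.7 ± 7.79 CPM) came next. Per1 (27.7 ± 5.79 CPM), Per2 (22.0 ± 6.94 CPM), Arntl (20.8 ± 5.99 CPM) and Nr1d1 (16.6 ± 5.31 CPM) each lay within 1 SD of the neighbour in this order. Ciart was the least abundant (5.81 ± 2.26 CPM), with 11 to 101 reads per mouse, so its values carry the largest counting error. In bulk tissue, fewer cells that express a gene and less RNA per cell cannot be told apart.

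Clock and Nr1d2 varied least between mice, and Dbp varied most. The biological coefficient of variation, the spread between mice that remains after counting error, was 16.6% for Clock and 16.9% for Nr1d2. It was 37.3% for Ciart, 32.7% for Per2, 28.5% for Arntl and 55.7% for Dbp. Relative to other genes of the same abundance, the dispersion of Dbp was at the 98.7th percentile of all tested genes, and the 0 in the low-connectivity mouse is part of both values. Neither was computed without that mouse, so Dbp is shown to vary most only with it included. The SE of the genotype difference, given below, was 0.28 for Dbp and 0.21 for Ciart over all mice. Without that mouse it was 0.18 and 0.20. The low-connectivity mouse was also the lowest mouse for Per1, Per2, Ciart and Nr1d2 and the highest for Nr1d1 and Tef. For Tef this rests on the TMM adjustment, which raised the CPM of that mouse. Its 2033 Tef reads of 7497498 counts gave 364 CPM, while 2354 of 8627177 in a male WT mouse of line 1 gave 290 CPM.

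Arntl, the activator without which the loop stops, ranged from 10.1 through a median of 20.2 to 28.9 CPM in WT mice and from 11.4 through 19.1 to 36.5 CPM in CYFIP1 OE mice. Clock, its partner, ranged from 40.3 through 50.5 to 73.0 CPM in WT mice and from 44.5 through 57.8 to 68.6 CPM in CYFIP1 OE mice. For both activators the ranges of the genotypes overlapped over most of their length.

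Of the repressors, Per1 ranged from 19.4 through 28.5 to 40.7 CPM in WT mice and from 15.4 through 27.4 to 37.8 CPM in CYFIP1 OE mice. Per2 ranged from 13.9 through 23.3 to 33.0 CPM in WT mice and from 5.55 through 23.0 to 36.3 CPM in CYFIP1 OE mice. Per3 ranged from 23.0 through 36.8 to 57.2 CPM in WT mice and from 21.5 through 32.2 to 44.3 CPM in CYFIP1 OE mice. The lowest Per1 and Per2 values belonged to the low-connectivity mouse, and for Per2 a further 2 CYFIP1 OE mice, at 9.01 and 11.8 CPM, also lay below the lowest WT mouse. Ciart, which binds and represses the activator pair, ranged from 2.44 through 5.43 to 11.2 CPM in WT mice and from 1.97 through 5.64 to 10.4 CPM in CYFIP1 OE mice.

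Of the nuclear receptors, Nr1d1 ranged from 8.12 through 14.5 to 20.4 CPM in WT mice and from 11.6 through 17.2 to 36.7 CPM in CYFIP1 OE mice. In 12 of the 15 CYFIP1 OE mice Nr1d1 was above the WT mean, and in 4 it was above the highest WT mouse, 1 of which was the low-connectivity mouse. Nr1d2 ranged from 60.4 through 73.5 to 93.5 CPM in WT mice and from 50.7 through 70.9 to 88.8 CPM in CYFIP1 OE mice.

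Of the output factors, Dbp ranged from 21.6 through 53.3 to 84.8 CPM in WT mice. In CYFIP1 OE mice it was listed at 0 in 1 mouse, with a median of 51.0 and a maximum of 88.9 CPM. Tef ranged from 140 through 211 to 290 CPM in WT mice and from 160 through 245 to 364 CPM in CYFIP1 OE mice. No member separated the genotypes, as the plot of each gene by genotype shows.

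**Figure D1:**
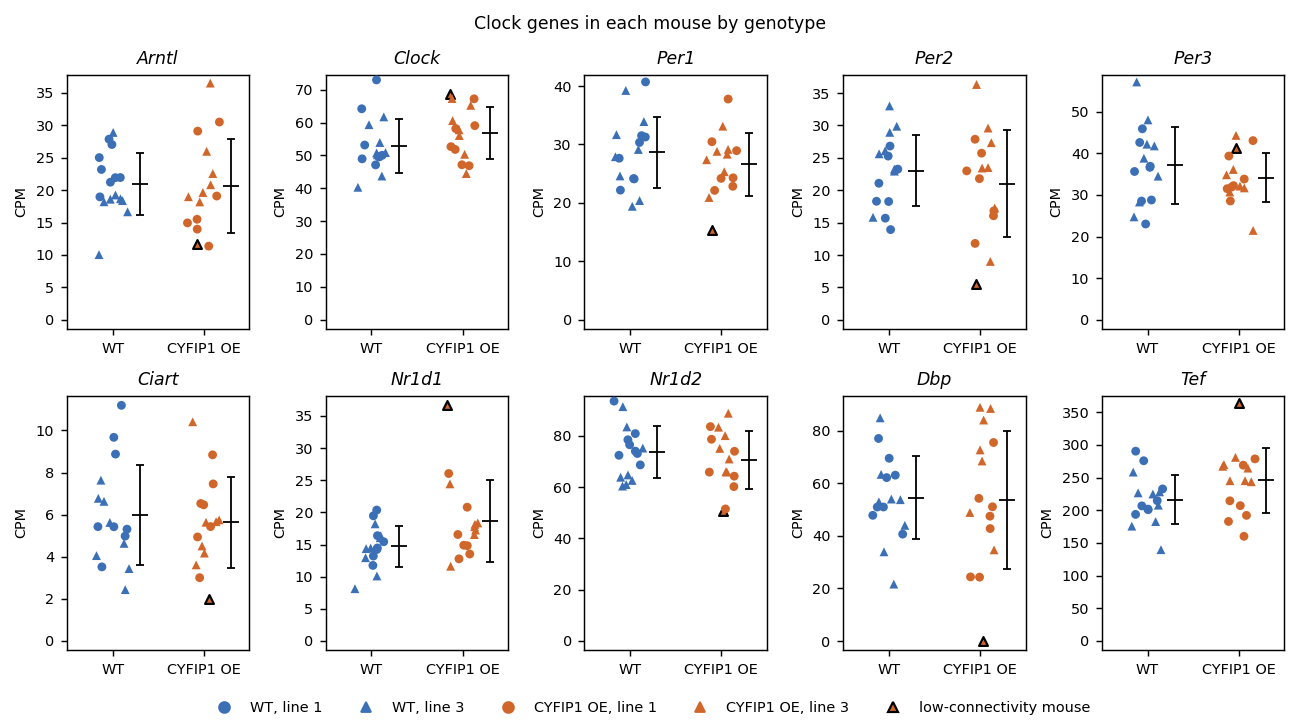
CPM of the 10 clock genes (y axis, 1 panel per gene) in each mouse, by genotype on the x axis, with color for genotype, shape for line, a black outline for the low-connectivity mouse and a bar for the mean ± SD. The genotypes overlap in every panel, and the outlined mouse lies at the bottom for Per1, Per2, Ciart, Nr1d2 and Dbp and at the top for Nr1d1 and Tef.

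The first question was whether Arntl opposed Dbp and the Per genes across mice. Against Dbp the opposite sign was seen, and mice with more Arntl tended to have more Dbp. Pearson's r between the log2 CPM of Arntl and Dbp was 0.50 (two-sided permutation p = 0.00215, n = 31), and Spearman's rho was 0.56 (permutation p = 0.00112). Without the low-connectivity mouse r was 0.54 (permutation p = 0.0023), and without the 2 mice farthest from the median of Arntl it was 0.53. Over deviations from each name group mean, r was 0.34 with the low-connectivity mouse (28 mice) and 0.51 without it (27 mice). It was 0.38 in WT mice alone (permutation p = 0.147), 0.57 in CYFIP1 OE mice alone (0.65 without the low-connectivity mouse), 0.56 in line 1 alone and 0.56 in line 3 alone (0.55 without that mouse).

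The mice at the extremes of Arntl serve as examples. The mouse with the most Arntl, a female CYFIP1 OE mouse of line 3 at 36.5 CPM, had 88.4 CPM of Dbp and also the most Per2, 36.3 CPM. The mouse with the least Arntl, a male WT mouse of line 3 at 10.1 CPM, had 33.9 CPM of Dbp. High Arntl stood beside high Dbp at one extreme and low Arntl beside low Dbp at the other. Not every mouse followed this direction. A female WT mouse of line 3 had 84.8 CPM of Dbp with 19.2 CPM of Arntl. A female CYFIP1 OE mouse of line 1 had 75.5 CPM of Dbp with 19.1 CPM of Arntl. The mouse with the most Arntl also had the smallest library (5286708 counts).

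Arntl showed no opposition to the Per genes that passed the test either. Its r was 0.14 with Per1 (permutation p = 0.44), 0.27 with Per2 (permutation p = 0.138) and −0.25 with Per3 (permutation p = 0.176), all over 31 mice. Spearman's rho was 0.09, 0.07 and −0.29 for these genes. Without the low-connectivity mouse r became −0.03 with Per1, 0.09 with Per2 and −0.22 with Per3. Over deviations from each name group mean, r was 0.03 with Per1, 0.15 with Per2 and −0.43 with Per3 (28 mice). Without that mouse these were −0.08, 0.04 and −0.42 (27 mice), and no p was computed for them. In WT mice alone r with Per2 was −0.49 (permutation p = 0.0504), and in CYFIP1 OE mice alone it was 0.57 (permutation p = 0.0265), or 0.43 (permutation p = 0.124) without the low-connectivity mouse. The difference between the genotypes was not tested. The r of Arntl was 0.09 with Ciart, −0.10 with Nr1d1, 0.20 with Nr1d2, 0.11 with Tef and −0.05 with Clock.

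**Figure D2:**
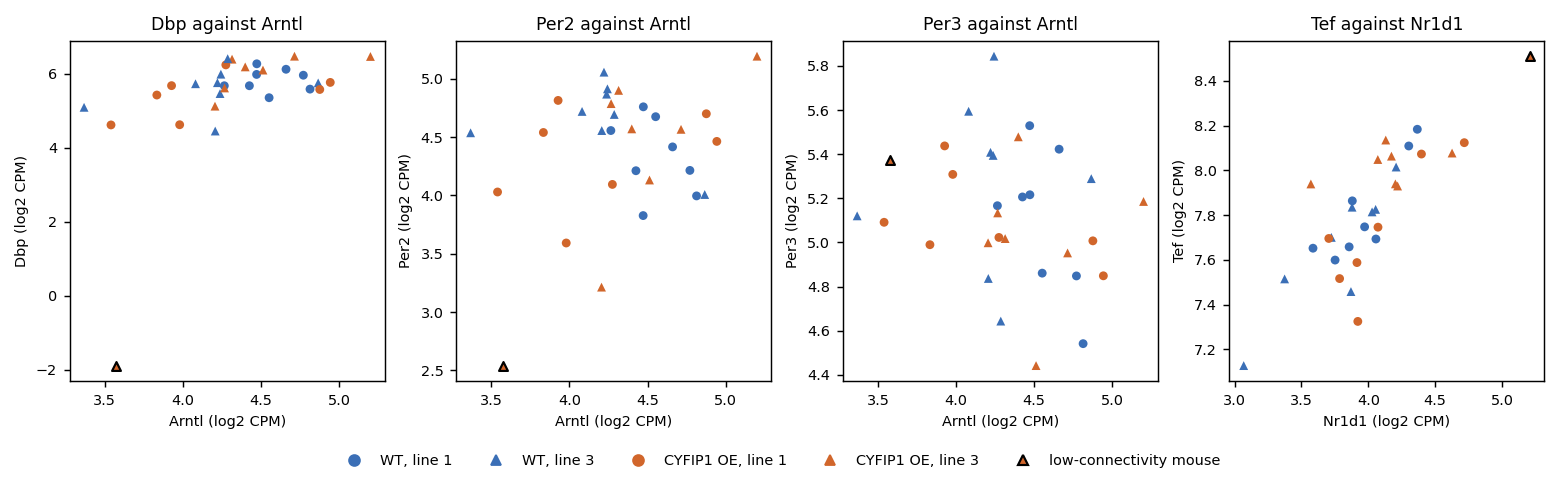
Log2 CPM of Dbp, Per2 and Per3 against Arntl, and of Tef against Nr1d1, with 1 point per mouse, color for genotype, shape for line and a black outline for the low-connectivity mouse. Dbp rises with Arntl (r = 0.50) and Tef with Nr1d1 (r = 0.83), while Per2 and Per3 show no relation to Arntl that passed the test.

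Among all 45 pairs of members, 12 had an unadjusted permutation p under 0.05 over the 31 mice, 9 positive and 3 negative. Without the low-connectivity mouse 5 pairs were under 0.05, all positive. The 3 negative pairs, Per2 with Nr1d1 (r = −0.50), Nr1d1 with Dbp (r = −0.43) and Per2 with Tef (r = −0.36), had an r of −0.25, 0.27 and −0.13 without that mouse. The closest pair was Nr1d1 with Tef, with r = 0.83 and rho = 0.80 over 31 mice and r = 0.78 without the low-connectivity mouse (permutation p = 1e-05, the smallest that 100000 resamples can give). Without the 2 mice farthest from the median of Nr1d1 it was 0.71. It was 0.90 among the WT mice alone and 0.75 among the CYFIP1 OE mice alone. Dbp with Per2 had r = 0.68 over all mice and 0.38 without the low-connectivity mouse, and Dbp with Per1 had 0.57 and 0.36. Over 31 mice, r after removal of sex, line and genotype was also ranked among 10964 genes. With Dbp, 28.5% of genes had a larger absolute r than Arntl, 18.1% than Per1 and 7.78% than Per2. With Arntl, Per1 and Per2 as the reference, 10.1%, 0.693% and 1.80% had a larger one than Dbp. With Nr1d1, 0.0912% had a larger one than Tef. Without the low-connectivity mouse (10952 genes), the share with Dbp was 8.38% for Arntl, 23.8% for Per1 and 28.9% for Per2. With Arntl, Per1 and Per2 as the reference, it was 3.87%, 4.31% and 16.0% for Dbp. With Nr1d1 it was 0.0365% for Tef.

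**Figure D3:**
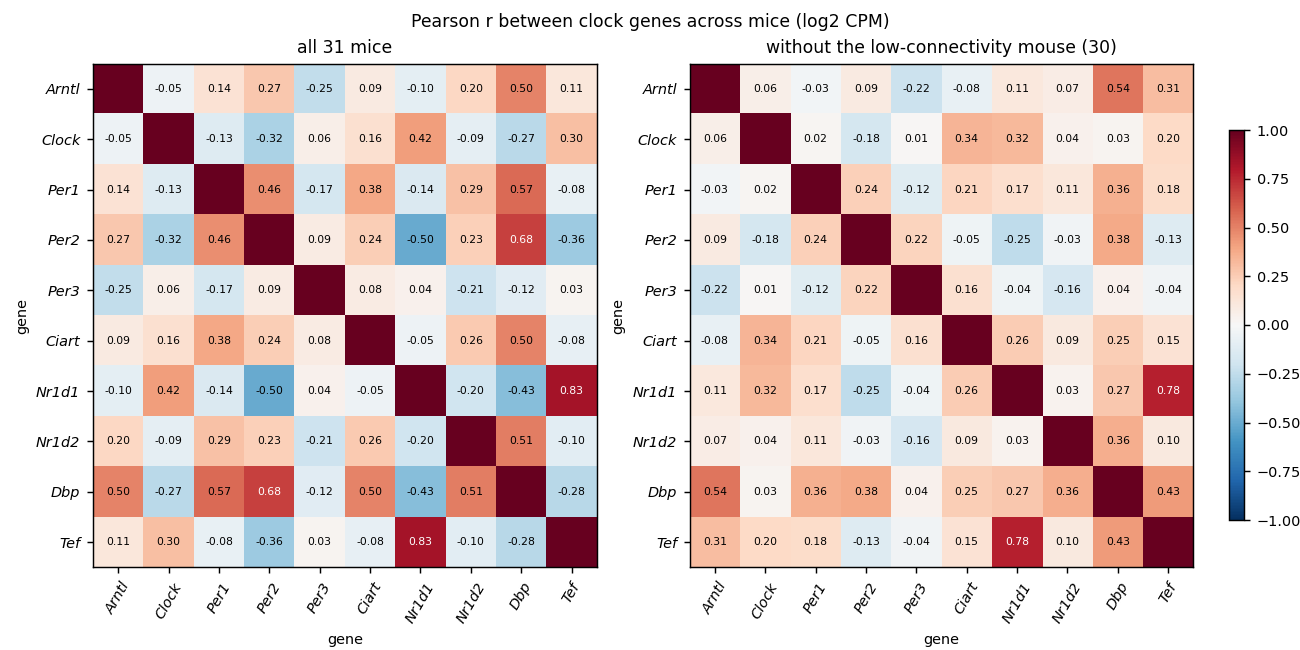
Pearson's r of log2 CPM between each pair of the 10 clock genes, over all 31 mice (left) and over 30 mice without the low-connectivity mouse (right), with red for positive and blue for negative values. The negative values of Per2 and Dbp with Nr1d1 on the left shrink or turn positive on the right, and Nr1d1 with Tef stays the highest (0.83 and 0.78).

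The same relations were then read from a model of all genes, in which the log2 CPM of 1 member was a covariate beside sex, line and genotype (edgeR's quasi-likelihood test, Benjamini-Hochberg adjustment over all genes, with a call at an adjusted p under 0.05). With Arntl as the covariate, 0 of the 9 other members were called, where 2.4% of 17427 genes were. The slope of Dbp was 0.90 ± 0.33 (log2 per log2 unit, SE, adjusted p = 0.151) and 0.69 ± 0.20 without the low-connectivity mouse (adjusted p = 0.0829). With DESeq2 the adjusted p was 0.148. Dbp was the 1 member of 9 with an unadjusted p under 0.05, where 15.4% of genes were. Hlf, another PAR bZIP factor, was the 1 gene called among 18 other clock genes (slope 0.59, adjusted p = 0.0249). Without the low-connectivity mouse 0 of the 9 members and 0 of these 18 were called, where 1.04% of genes were.

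With Dbp as the covariate, 4 of 9 members were called, where 18.3% of 17427 genes were. Per2 (slope 0.26 ± 0.06, adjusted p = 0.00194), Per1 (0.12 ± 0.04, adjusted p = 0.0259) and Ciart (0.22 ± 0.08, adjusted p = 0.0479) rose with Dbp, and Nr1d1 fell (−0.12 ± 0.04, adjusted p = 0.0397). Over all genes 9.88% were called with a positive and 8.39% with a negative slope. Without the low-connectivity mouse none of these 4 was called, and the slope of Nr1d1 was 0.17 ± 0.11 (adjusted p = 0.484). Arntl was then the 1 member called (0.41 ± 0.13, adjusted p = 0.048), where 5.47% of 17718 genes were, and all 9 slopes were positive. Of the 18 other clock genes, Hlf (0.51, adjusted p = 0.000131), Npas2 (0.63, adjusted p = 0.00478) and Cry1 (0.56, adjusted p = 0.0232) were called without that mouse. NPAS2 is a paralogue of CLOCK, and CRY1 is a repressor that works with the PER proteins.

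With Nr1d1 as the covariate, Tef was the 1 member called (slope 0.57 ± 0.09, adjusted p = 0.000111), where 7.56% of genes were, and it was also called without the low-connectivity mouse (0.59 ± 0.11, adjusted p = 0.0071), where 1.82% were. With Tef as the covariate, Nr1d1 was called (1.18 ± 0.18, adjusted p = 7.64e-05, and 1.01 ± 0.20, adjusted p = 0.00115, without that mouse), where 9.02% and 8.55% of genes were. Cry2, the other cryptochrome repressor, was called in all 4 of these fits, with slopes from 0.42 to 0.63.

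Levels of markers of neighbouring tissue moved with the same genes. The summed CPM of 12 striatal neuron markers ranged from 287 to 6451 between mice, that of 10 oligodendrocyte markers from 1171 to 9210, and that of 8 choroid plexus markers from 30.4 to 8625. The 12 markers of BLA principal neurons, which check the labelled tissue, summed to 830 to 2625 CPM, and 1 gene, Ppp1r1b, is on both neuron lists. No gene of these lists was at 0 in all mice. In WT mice the striatal sum ran from 287 to 5807, and in CYFIP1 OE mice from 319, in the low-connectivity mouse, to 6451. The log2 level of Dbp had an r of 0.72 with the striatal sum and 0.77 without the low-connectivity mouse, and Arntl had 0.65 and 0.59. Tef and Nr1d1 had 0.71 and 0.56 with the sum of 12 markers of BLA principal neurons, and 0.79 and 0.67 without that mouse. Dbp and Arntl had 0.24 and 0.54 with the same BLA sum, and 0.66 and 0.57 without that mouse. Tef and Nr1d1 had 0.27 and −0.01 with the striatal sum, and 0.65 and 0.38 without that mouse. The members thus did not divide cleanly between the lists. Nr1d2 had 0.65 and 0.61 with the oligodendrocyte sum. These correlations are descriptions over 31 or 30 mice that share library and dissection. Dbp also had 0.78 and 0.65 with the summed immediate early genes, a list that responds to neuronal activity.

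When the oligodendrocyte and striatal sums were added to the model, the slope of Dbp on Arntl was 0.10 ± 0.33 (adjusted p = 0.999), against 0.90 without them, and 0 genes were called. In the reverse direction, without the low-connectivity mouse, the slope of Arntl on Dbp was 0.17 ± 0.20 (adjusted p = 0.739), against 0.41. For the other members on Dbp, 3 of 9 were called over 31 mice with the sums added, where 17.6% of genes were. These were Per2 (0.37 ± 0.08, adjusted p = 0.00104), Nr1d1 (−0.23 ± 0.05, adjusted p = 0.00298) and Tef (−0.19 ± 0.03, adjusted p = 7.35e-05). With the low-connectivity mouse left out as well, 0 of 9 were called, where 3.55% of genes were, and Per2 had a slope of 0.65 ± 0.21 (adjusted p = 0.0771), against 0.25 ± 0.14 before the sums were added.

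The genes closest to Arntl in pattern were Sipa1l1 (r = 0.84), Zfp180 (0.80), Mpped2 (0.77), Ano3 (0.76) and Elmod1 (0.76), and the most opposite were Calb2 (−0.76), Ate1 (−0.71), Acot2 (−0.70), Cotl1 (−0.69) and Caskin1 (−0.69). These values are over 31 mice, after removal of sex, line and genotype, among genes of at least 5 CPM. The genes closest to Dbp over 31 mice were Gm10175 (0.94), Gm9844 (0.94), Gm4149 (0.93), Ghitm (0.93) and Gm7536 (0.93), and the most opposite were Nfia (−0.90), Itsn1 (−0.88), Adam15 (−0.87), Ap2s1 (−0.86) and Grn (−0.86). With the low-connectivity mouse left out the closest were Baiap2 (0.91), Rragd (0.90), Osbpl8 (0.89), Kctd1 (0.87) and Pdpk1 (0.86), so that the list rested on that mouse.

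The second question was whether the members differed between name groups. No member was called (F test of all name-group terms with sex and genotype as covariates), where 0.0172% of 17428 genes were. Line and mostly age were nested in name group, so the test cannot separate them from a shared litter or day of collection. Name groups of 1 mouse added nothing to the spread within groups. At an unadjusted p under 0.05 the count was also 0 of 10, where 6.31% of genes were, and DESeq2 called 0 of the 10. The lowest p over all mice was that of Arntl (unadjusted p = 0.0565, adjusted p = 0.799), and without the low-connectivity mouse that of Clock (unadjusted p = 0.0638, against 0.0928 for Arntl and 0.0948 for Dbp). Among the 7 name groups of at least 2 mice, the mean of Arntl ran from 14.6 CPM in X424.C to 28.0 CPM in SMC12.C. The mean of Dbp ran from 27.4 CPM in X424.C, which holds the low-connectivity mouse, to 73.1 CPM in X605B.A, and without that mouse the lowest was 36.0 CPM, in X429.A. X424.C was thus the lowest of these 7 groups for both Arntl and Dbp over all mice. Within the 7 WT mice of X426.B, which shared line and age, Arntl ran from 19.0 to 27.0 CPM, Dbp from 40.6 to 77.0 CPM and Per2 from 13.9 to 26.8 CPM.

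**Figure D4:**
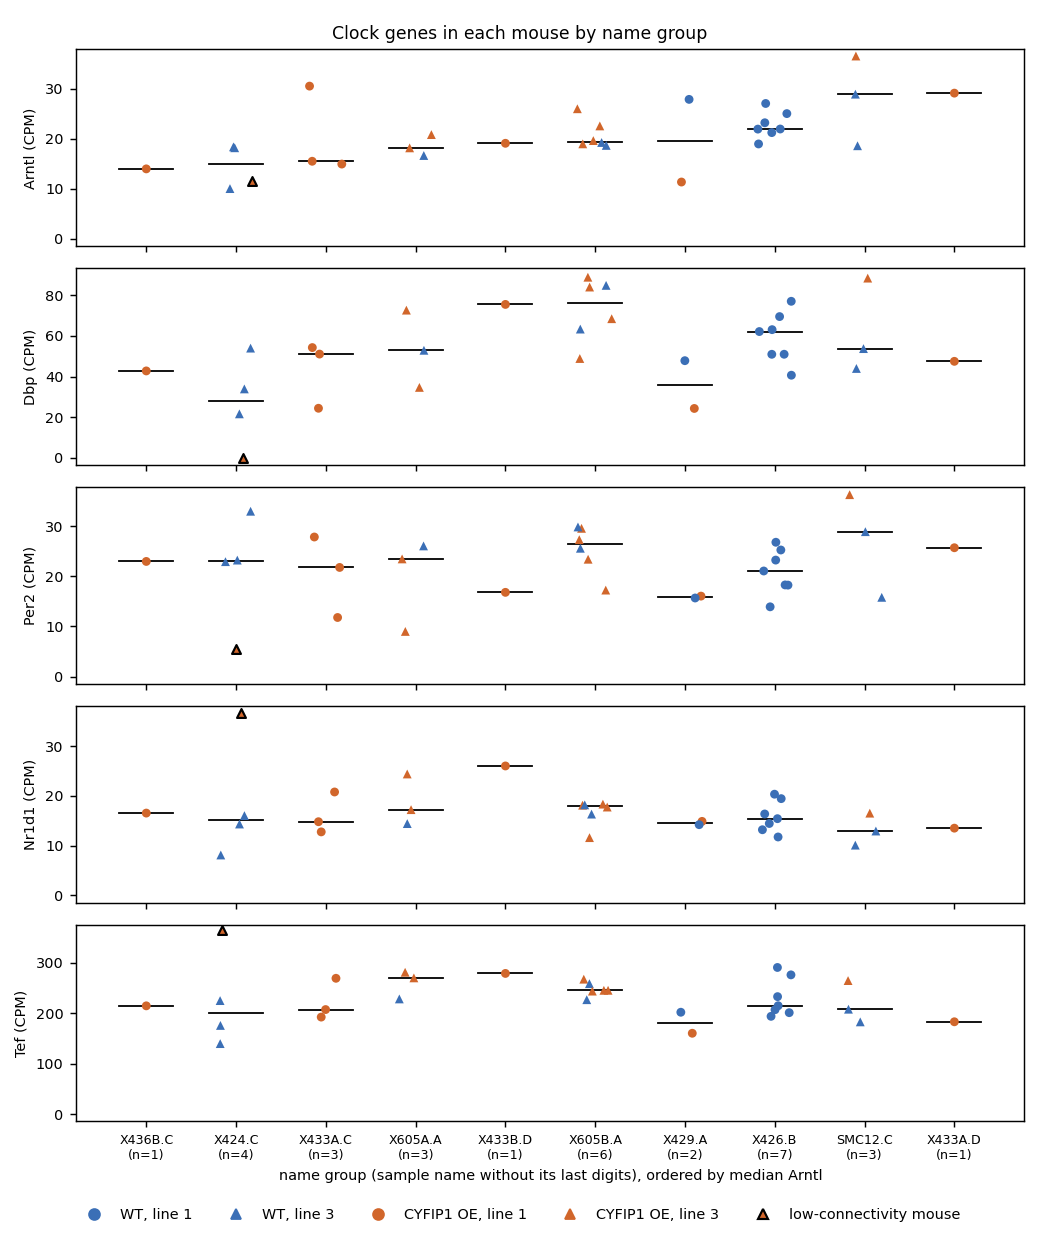
CPM of Arntl, Dbp, Per2, Nr1d1 and Tef (y axes) in each mouse by name group (x axis, ordered by median Arntl), with a line at the group median, color for genotype, shape for line and a black outline for the low-connectivity mouse. Dbp does not fall as Arntl rises from left to right, and mice of 1 name group spread over much of each range.

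The third question was whether genotype changed the members. No member was called (edgeR's quasi-likelihood test with sex and line as covariates), and 0 of 17428 genes were (0.0%). At an unadjusted p under 0.005, 0 of 10 members passed, where 51 genes did (0.293%). At an unadjusted p under 0.05, 1 of 10 members passed, where 4.3% of genes did. That member was Nr1d1 (14.7 ± 3.20 CPM in WT, n = 16, and 18.7 ± 6.38 CPM in CYFIP1 OE, n = 15). Its log2 difference, CYFIP1 OE minus WT, was 0.34 ± 0.14 (SE, unadjusted p = 0.0236, adjusted p = 0.999), and 0.23 ± 0.12 without the low-connectivity mouse (unadjusted p = 0.0695). Adjusting for 5 surrogate variables brought this difference to 0.07 ± 0.09. It was larger with age as a covariate (0.44 ± 0.16, unadjusted p = 0.00813), without the mice aged 77 days (0.43 ± 0.16, unadjusted p = 0.012) and in line 3 alone (0.55 ± 0.22, unadjusted p = 0.0211), and it was called in none of these fits. With the name group as a block in place of line, 3 of 10 members had an unadjusted p under 0.05, where 5.5% of genes did. These were Nr1d1 (0.51 ± 0.20, unadjusted p = 0.0162), Tef (0.33 ± 0.14, unadjusted p = 0.0215) and Per1 (−0.31 ± 0.15, unadjusted p = 0.0474), and their adjusted p was 0.858, 0.86 and 0.902.

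The other differences were −0.03 ± 0.15 for Arntl, 0.10 ± 0.08 for Clock, −0.10 ± 0.11 for Per1, −0.14 ± 0.17 for Per2 and −0.11 ± 0.11 for Per3. They were −0.07 ± 0.21 for Ciart, −0.07 ± 0.08 for Nr1d2, −0.08 ± 0.28 for Dbp and 0.17 ± 0.10 for Tef. Of the 10 members 3 had a positive and 7 a negative difference, with a median of −0.07 where the median of all genes was −0.01. Without the low-connectivity mouse 5 were positive and 5 negative. Of the 18 other clock genes none was called, and 1 had an unadjusted p under 0.05, Arntl2, a paralogue of Arntl (−0.44 ± 0.17, unadjusted p = 0.0117, adjusted p = 0.999).

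Whether the genotype difference differed between the lines was tested as an interaction, which called no member and 0 of 17428 genes (0.0%). At an unadjusted p under 0.05 Tef was the 1 member of 10, where 8.1% of genes were. In line 3 it was 205 ± 37.6 CPM in WT mice (n = 8) and 273 ± 39.5 CPM in CYFIP1 OE mice (n = 8), and in line 1 it was 227 ± 36.7 CPM (n = 8) and 215 ± 44.0 CPM (n = 7). The difference between the lines was 0.51 ± 0.18 on the log2 scale (unadjusted p = 0.00857, adjusted p = 0.535), and 0.44 ± 0.17 without the low-connectivity mouse (adjusted p = 0.309). With that mouse left out 3 of 10 members had an unadjusted p under 0.05, where 10.4% of genes did, namely Tef (0.0135), Dbp (0.80 ± 0.33, unadjusted p = 0.0209, adjusted p = 0.36) and Arntl (0.61 ± 0.28, unadjusted p = 0.0371, adjusted p = 0.429). No member was called for sex or for line, where 0.0631% of genes were called for sex and 0.0% for line, and at an unadjusted p under 0.05 the count was 0 of 10 for both, where 4.62% of genes were for sex and 3.31% for line.

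**Figure D5:**
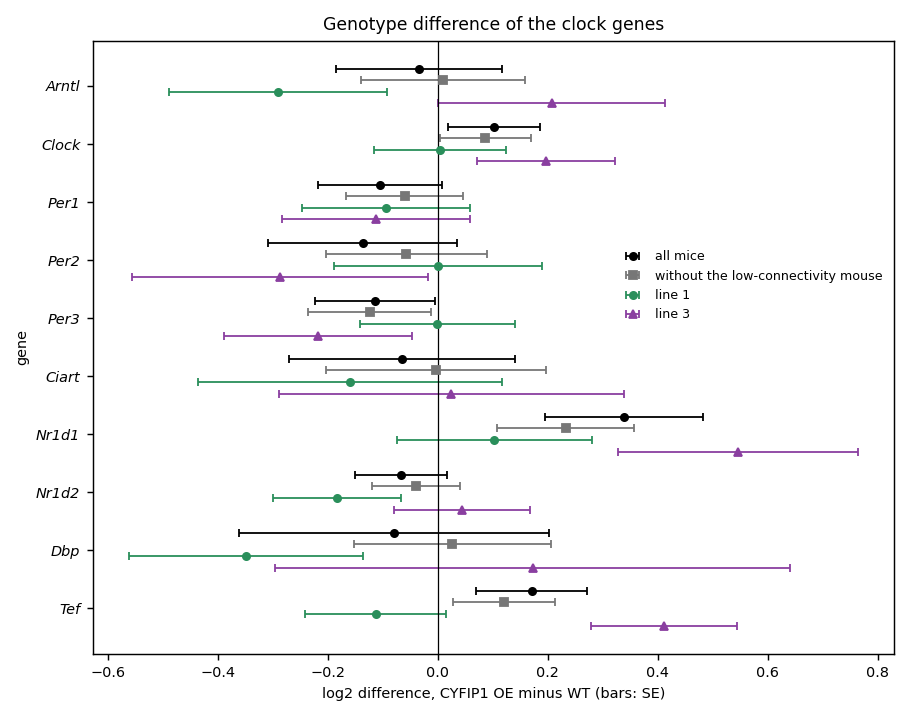
Log2 difference of the 10 clock genes between CYFIP1 OE and WT mice (x axis) with its SE as bars, from all mice, without the low-connectivity mouse, and in line 1 and line 3 alone. Nr1d1 lies farthest from 0 over all mice (0.34 ± 0.14), and Tef has opposite signs in the lines (−0.11 and 0.41).

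Counts of 2 members may include reads of a neighbour. The annotation has Nr1d1 (chr11:98767932-98775333, GRCm38) and Thra, the thyroid hormone receptor gene, share 263 exonic bases on opposite strands, all within the last 500 exonic bases of Nr1d1. Dbp (chr7:45705088-45710203) and Sphk2, a sphingosine kinase gene, share 539, which cover all of the last 500 exonic bases of Dbp. Thra was far more abundant than Nr1d1 (616 CPM on average), and its log2 level had an r of 0.44 with Nr1d1, or 0.17 without the low-connectivity mouse. Sphk2 (29.1 CPM) had an r of −0.57 with Dbp, or −0.41 without that mouse. In the low-connectivity mouse, with Dbp at 0, Sphk2 was 48.4 CPM, against 16.5 to 38.3 CPM in the others. Thra was 1084 CPM in that mouse, which also had the most Nr1d1, against 486 to 817 CPM in the others. Whether reads were assigned to the neighbour there was not tested. The strand setting of the counting is not given in the sources used here, so values of Nr1d1 and Dbp are uncertain to that extent.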

How the data were processed

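QuantSeq 3′ libraries of the BLA of 31 mice were analysed. The authors aligned reads with STAR and quantified transcripts with Salmon on GRCm38, per the labels and the methods of the study, and deposited expected counts per gene, 1 file per mouse. The versions are not given in the sources used here. Rounded expected counts were tested for every gene that reached 10 reads in 20% or more of the mice. Tests used edgeR 4.0.16 (TMM, quasi-likelihood F test) in R 4.3.3 with Benjamini-Hochberg adjustment over all genes and a threshold of 0.05. Log2 CPM used a prior count of 2. DESeq2 1.42.0 and sva 3.50.0 were alternatives. SE was taken from the log2 value and its F. Correlations used 100000 permutations, two-sided. The 5 sequencing principal components of the study's model need alignment statistics and were not used here. The study states that it removed samples with a connectivity Z-score under −2. By the Z-score computed here the low-connectivity mouse falls under that limit, but it was kept in the main fits and left out only in alternatives. Scripts were tested on simulated data.

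Named were all 10 members, other clock genes called in a comparison, the 5 most and 5 least similar genes to Arntl and to Dbp, and genes that overlap a member's 3′ end. The members and lists were chosen with earlier results of these data known. Groups came from the labels. Each library is a separate mouse, so p-values measure the spread between mice. Depth limits Ciart most. Alternatives were other scalings, filters, covariates and subsets of mice. The labels call the second founder line 3.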

Additional observations from a re-analysis of the deposited data

Results flagged for a closer look

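Each member was examined in the 4 groups of genotype and line (7 or 8 mice each, 40 groups in all) for a mouse far from the others, and chance alone sets apart about 1 in 20 groups. There were 2 such cases, both in CYFIP1 OE mice of line 3. Ciart was 10.4 CPM in 1 female, where the next mouse had 5.75 CPM, and Tef was 364 CPM in the low-connectivity mouse, where the next had 281 CPM. The Tef case depends on the TMM adjustment, since these values came from 2033 of 7497498 and 1808 of 7290963 counts. Tef also had a genotype difference that was 0.51 higher in line 3 than in line 1 on the log2 scale. The unadjusted p of that interaction was 0.00857, and the adjusted p over all genes with edgeR's quasi-likelihood test was 0.535, so it did not pass the correction.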

How the results depend on the processing

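The calls of members by genotype, sex, line, genotype by line and Arntl as the covariate were 0 under every alternative run. For name groups 0 members were called, except for 1 (Dbp) with no filter on low counts. With Dbp as the covariate 4 members were called, against 5 with at least 10 reads in every mouse (Arntl added), 3 with DESeq2 size factors, 3 without the mice aged 77 days, 3 with the marker sums added, 2 without the filter, 2 in CYFIP1 OE mice alone, 1 with a name group block, 1 without the low-connectivity mouse, 1 without the 2 mice farthest from the median, 0 in WT mice alone, 0 without the low-connectivity mouse with a name group block and 0 without it with the marker sums added. With Per2 as the covariate, 0 members and 0 genes were called without that mouse, against 1 and 1110.

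Counts over all genes moved more. For genotype 3 genes were called with 5 surrogate variables, against 0. For name groups 3 genes were called, against 1318 with no filter, 201 with DESeq2, 10 without groups of 1 mouse, 6 without mice aged 77 days, 5 with at least 10 reads in every mouse, and 0 without the low-connectivity mouse, in line 3 alone and in WT mice alone. With Arntl as the covariate 419 became 778 with DESeq2, 188 without the 2 farthest mice, 184 without the low-connectivity mouse, 124 without mice aged 77 days, 2 in CYFIP1 OE mice, 1 in line 1, and 0 in line 3, in WT mice, with the name group block and with the marker sums. With Dbp 3184 became 970 without the low-connectivity mouse, 629 with the marker sums as well, 479 without the 2 farthest mice, 201 in WT mice and 176 with the block without the low-connectivity mouse. With Nr1d1 1318 became 322 without that mouse. Subsets have fewer mice; the cause of the other shifts was not tested.

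The correlation of Arntl with Dbp did not pass in WT mice alone (r = 0.38). That of Arntl with Per1 reversed without the low-connectivity mouse (−0.0251), in WT mice (−0.14) and in line 3 without that mouse (−0.32), and with Per2 in WT mice (−0.49). Genotype differences near 0 changed sign, on the log2 scale. Arntl was 0.0096 without the low-connectivity mouse, 0.0703 without mice aged 77 days, 0.0606 with age, 0.0553 with the name group block, 0.207 in line 3 and 0.0737 in name groups of both genotypes. Dbp was 0.0268, 0.0447, 0.0502, 0.173 and 0.116 under these settings except the block. Ciart was 0.0203 without mice aged 77 days, 0.0189 with age, 0.0249 in line 3 and 0.0587 in name groups of both genotypes, and Nr1d2 was 0.0265, 0.0164, 0.0443 and 0.0688. Per2 was 0.0012 and Tef −0.113 in line 1.

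The labels give no replicate numbers shared between genotypes. The name group was used as a block instead, since 5 name groups hold both genotypes (9 WT and 9 CYFIP1 OE mice), and it called 0 members by genotype, as did a fit on those 18 mice. No paired analysis was possible because no label ties single WT mice to single CYFIP1 OE mice. The correlation subsets, the slopes on members other than Arntl and Dbp, and the slopes on Dbp with marker sums or with the block without the low-connectivity mouse were chosen after seeing the data. Depth limits Ciart, with as few as 11 reads.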

Other observations

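Usp2, a deubiquitinase whose transcript cycles in many tissues, had a genotype difference that was 0.64 ± 0.17 higher in line 3 than in line 1 on the log2 scale (edgeR, unadjusted p = 0.000695, adjusted p = 0.507), and Hlf had 0.56 ± 0.25 (unadjusted p = 0.0328, adjusted p = 0.576). Both kept this sign without the low-connectivity mouse, with 0.57 ± 0.16 for Usp2 and 0.69 ± 0.21 for Hlf, and neither passed the correction. Hlf had the lowest p of the 18 other clock genes in the test of name groups (unadjusted p = 0.00476, adjusted p = 0.538).

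The summed level of 10 temperature-responsive genes, such as the cold-induced Cirbp and Rbm3 and the heat shock genes, had an r of −0.62 with Arntl and −0.64 with Dbp over 31 mice, and −0.56 with both without the low-connectivity mouse. That mouse had the highest sum (3550 CPM, against 1995 to 3230 CPM in the others) after the TMM adjustment, which raised its CPM. The same mouse had the lowest sum of immediate early genes (190 CPM, against 245 to 629 CPM). Genes induced by cold and by heat were summed together, so the sum gives no direction of temperature, and single genes of the list were not examined. These are descriptions over mice that share library and dissection.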
